A study of Homo sapiens with 12 samples.

Results

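The transcripts described here encode 10 enzymes and helper proteins of prostaglandin and leukotriene synthesis, PTGS1, PTGS2, PTGES, HPGDS, TBXAS1, HPGD, ALOX5, ALOX5AP, LTA4H and LTC4S. They were chosen by name from the platform annotation, and all 10 were found among the 19775 genes measured. Among the 22 probe sets that name a single member, the brightest over the 12 arrays was used for each gene and the others served as a check. The cells were U937, an established human myelomonocytic line, transduced with a vector that expresses EVI1 (the EVI1 cells) or with the empty vector (the vec cells). EVI1 is a zinc finger protein that binds DNA and is a product of the MECOM gene. For 24 h each population was kept with TPA at 50 ng/ml or with the same amount of its solvent, ethanol (EtOH). TPA is a phorbol ester and acts through protein kinase C. This gave 4 groups of 3 arrays, vec EtOH, vec TPA, EVI1 EtOH and EVI1 TPA, described as biological replicates. The labels used here do not state whether the replicates came from separate transductions, so p-values between the populations may cover only the spread between cultures. The sources used here do not give the promoter that drives EVI1 or whether a population is a clone.

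Cyclooxygenases, encoded by PTGS1 and PTGS2, turn arachidonic acid freed from membranes into prostaglandin H2, and terminal synthases turn that into prostaglandins or thromboxane. In the other branch, the product of ALOX5 oxidises arachidonic acid to leukotriene A4 with the help of the membrane protein encoded by ALOX5AP. LTA4H turns leukotriene A4 into leukotriene B4, and LTC4S joins it to glutathione to give leukotriene C4. Monocytes and macrophages are known sources of both kinds of mediator, and PTGS2 is known as the inducible cyclooxygenase of these cells.

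The promoters of the 4 members whose level differed most between the groups are printed here to show how different these upstream sequences are. Each is the 250 bases before an annotated start, from RefSeq on GRCh38.p14, written on the gene's own strand, and positions count back from -1 just before that start. The table of promoters held starts for 9 of the 10 members, 11 starts in all, and ALOX5 was not among them. Capitals mark matches on either strand to a few known motifs, each searched for on its own. The TATA box was searched for as TATAAA, and the GC box of SP1 as GGGCGG. For C/EBP factors the letters were TTNNGNAA, and for the core of a cAMP response element they were TGACG. AP-1 was searched for as TGANTCA. The letters for EGR1 were GCGNGGGCG, which can overlap those of the GC box. PU.1 was searched for as GAGGAA. NF-kB was searched for by its consensus, GGGRNWYYCC, where N is any base, R is A or G, W is A or T and Y is C or T. The PTGS2 sequence is chr1:186680424-186680673 on the minus strand. PTGS1 has 2 starts, preceded by chr9:122370283-122370532 and chr9:122375052-122375301 on the plus strand. The ALOX5AP sequence is chr13:30713235-30713484 and that of TBXAS1 chr7:139829014-139829263, both on the plus strand.
PTGS2: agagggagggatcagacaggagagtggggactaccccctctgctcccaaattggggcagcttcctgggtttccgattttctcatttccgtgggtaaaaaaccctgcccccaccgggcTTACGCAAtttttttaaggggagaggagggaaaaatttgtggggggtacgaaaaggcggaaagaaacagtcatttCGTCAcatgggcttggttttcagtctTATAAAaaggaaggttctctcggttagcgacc
PTGS1, start 1: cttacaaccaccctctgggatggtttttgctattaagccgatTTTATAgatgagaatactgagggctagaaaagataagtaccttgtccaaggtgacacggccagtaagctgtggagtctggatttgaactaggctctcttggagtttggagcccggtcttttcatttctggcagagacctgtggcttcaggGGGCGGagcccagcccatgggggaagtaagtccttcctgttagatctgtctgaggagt
PTGS1, start 2: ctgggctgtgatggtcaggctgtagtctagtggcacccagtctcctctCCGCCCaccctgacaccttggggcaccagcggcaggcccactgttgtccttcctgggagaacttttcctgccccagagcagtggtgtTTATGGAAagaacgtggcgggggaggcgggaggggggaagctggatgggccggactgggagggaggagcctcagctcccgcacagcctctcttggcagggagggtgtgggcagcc
ALOX5AP: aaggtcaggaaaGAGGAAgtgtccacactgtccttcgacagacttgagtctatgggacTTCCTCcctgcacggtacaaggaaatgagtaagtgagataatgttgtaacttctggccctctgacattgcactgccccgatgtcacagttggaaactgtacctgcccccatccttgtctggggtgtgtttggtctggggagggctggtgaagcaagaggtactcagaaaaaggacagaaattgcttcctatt
TBXAS1: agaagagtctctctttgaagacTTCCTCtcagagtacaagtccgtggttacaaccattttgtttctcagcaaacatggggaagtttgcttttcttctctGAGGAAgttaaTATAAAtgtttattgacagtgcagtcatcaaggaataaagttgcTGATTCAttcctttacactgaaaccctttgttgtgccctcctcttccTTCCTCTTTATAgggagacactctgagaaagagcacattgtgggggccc

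The PTGS2 sequence held a TATA box at -32 to -27, a cAMP response element core at -58 to -54 and a C/EBP match at -133 to -126. Over all 34788 promoters of the same length, 10.8% held the TATA box letters, 21.2% the cAMP response element core and 33.2% the C/EBP letters. Of the 11 member starts, 4 held the TATA box letters, 3 the cAMP response element core and 3 the C/EBP letters. TATA box letters also lay at -208 to -203 before the first start of PTGS1. TBXAS1 held them at -140 to -135 and at -43 to -38. PTGS1 held a GC box at -58 to -53 before its first start and at -202 to -197 before its second, and 42.6% of all promoters held 1. A C/EBP match lay at -115 to -108 before the second start of PTGS1. ALOX5AP held PU.1 letters at -238 to -233 and at -192 to -187, and TBXAS1 held them at 3 places, against 23.6% of all promoters with at least 1 match. TBXAS1 also held an AP-1 match at -96 to -90, which 6.59% of all promoters had. The exact NF-kB consensus letters, present in 5.21% of all promoters, matched none of the 11 starts. Sequences that depart from those letters were not counted, so the lack of a match does not show that a site is absent. The EGR1 letters, present in 8.41% of all promoters, matched only the start of PTGES. These matches describe letters in the window and no binding was measured.

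The deposited values are log2 expression values, so a difference of 1 is 2-fold. Array medians over all probe sets lay between 5.07 and 5.11, and a group mean under 5.07 is treated here as not shown to be above background. A mean above 5.07 does not by itself show that a transcript is present. Of 8 measured epithelial and fibroblast markers, 4 had a group mean above it, among them COL1A1 at 7.27 to 7.38, and 4 had none. Of 6 measured lymphoid markers, 2 had a group mean above it and 4 had none. The 5 probe sets that name MECOM read 2.59 to 3.32 on all arrays, and none differed between the populations (smallest adjusted p 0.102 over all probe sets, limma), so the population labels were not checked by the transcript. The sources used here do not say which part of MECOM the vector carries. Of the U937 and monocyte markers, 8 of 10 were measured. Their mean lay at 7.78 to 7.95 on the vec EtOH arrays and 9.06 to 9.38 on the vec TPA arrays. On the EVI1 EtOH arrays it lay at 7.76 to 7.86, and on the EVI1 TPA arrays at 8.75 to 8.82. By limma at an adjusted p below 0.05, 5 rose and 2 fell with TPA in vec cells (87.5%, against 43.2% of all genes). In EVI1 cells 4 rose and 1 fell (62.5%, against 40%). Between the populations in TPA, 1 was higher and 2 were lower in EVI1 cells (37.5%, against 11.2%). CD14 means were 4.74 in vec EtOH, 6.75 in vec TPA, 5.11 in EVI1 EtOH and 5.05 in EVI1 TPA. The other measured markers are given in the same order. CSF1R means were 5.86, 9.19, 5.99 and 8.98, and those of PTPRC 9.57, 11.38, 9.68 and 11.36. ITGAM means were 5.08, 10.03, 4.59 and 8.52, and those of SPI1 6.003, 6.303, 5.73 and 6.383. LYZ means were 12.87, 11.58, 12.86 and 11.23, and those of CEBPA 11.16, 10.53, 11.05 and 11.36. CD4 means were 7.68, 7.68, 7.55 and 7.36. The gap between 3' and 5' control probe sets of ACTB, a measure of RNA integrity and labelling, was 1.31 ± 0.17 (SD, n = 6) on the TPA arrays and 1.85 ± 0.13 on the EtOH arrays (exact two-sided permutation test, p = 0.00216). For GAPDH the same gap was 0.398 ± 0.113 against 0.570 ± 0.145 (p = 0.0476, exact permutation test). With both treatments pooled, neither gap differed between the populations beyond its spread (exact permutation p = 0.965 and 0.411). That spread includes the difference between TPA and EtOH, and the populations were not tested within a treatment. The ACTB means were 1.78 in vec EtOH, 1.91 in EVI1 EtOH, 1.36 in vec TPA and 1.25 in EVI1 TPA. The part of these gaps in the differences given here was not tested.

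TPA raised 5 of the 10 transcripts in vec cells and the same 5 in EVI1 cells: both cyclooxygenases, the thromboxane synthase TBXAS1, ALOX5AP and LTC4S. No member fell at an adjusted p below 0.05 in either population. Adjusted p-values are those of limma after the Benjamini-Hochberg method over all 19775 genes, unless a sentence names all probe sets. Of all genes, 20.7% rose and 22.5% fell in vec cells, 43.2% in all, and 19.4% rose and 20.6% fell in EVI1 cells, 40% in all. The median difference of the 10 members was 0.28 in vec cells and 0.24 in EVI1 cells, against 0.02 and 0.00 over all genes. The lowest and highest array did not overlap between TPA and EtOH for 7 members in vec cells and 5 in EVI1 cells, against 50.3% and 46.6% of all genes. In bulk RNA, fewer cells with a transcript and less of it per cell cannot be told apart.

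**Figure D1:**
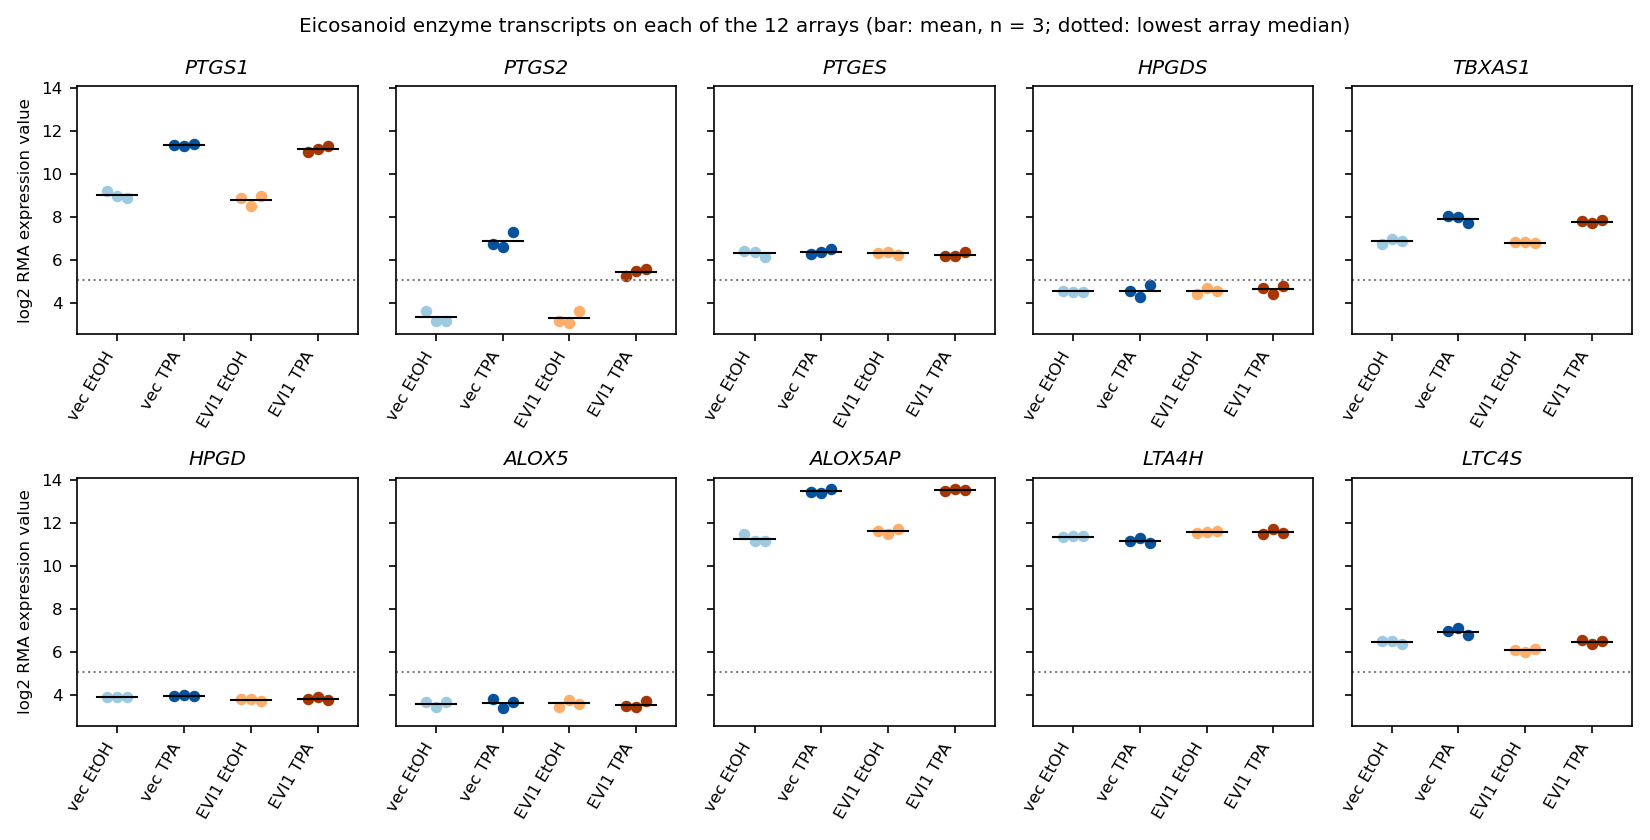
Log2 RMA expression value (vertical axis) of each of the 10 transcripts on every array, by group; points are arrays, bars are means of 3 arrays and the dotted line is the lowest array median, 5.07. PTGS2 lies under the line on all 6 EtOH arrays and above it on all 6 TPA arrays, while HPGDS, HPGD and ALOX5 stay under it on all 12.

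PTGS2, the inducible cyclooxygenase, had the largest response of the 10 in vec cells and was the only member whose response differed between the populations by the test of that difference. The gene lies at chr1:186671791-186680423 on GRCh38.p14. It read 3.67, 3.19 and 3.20 on the vec EtOH arrays and 6.75, 6.62 and 7.32 on the vec TPA arrays. In EVI1 cells it read 3.19, 3.09 and 3.65 in EtOH and 5.27, 5.53 and 5.59 in TPA. All 6 EtOH arrays lay below the median line and mixed between the populations, whereas every vec TPA array lay above every EVI1 TPA array. The rise was 3.54 ± 0.19 (SE; 11.7-fold, adjusted p = 2.56e-09) in vec cells and 2.15 ± 0.19 (4.45-fold, adjusted p = 4.78e-07) in EVI1 cells. Because the EtOH levels may be background, these folds may understate the change.

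The difference between the PTGS2 responses was -1.39 ± 0.27 (95% confidence interval -1.98 to -0.80, adjusted p = 0.0213). Of all genes 1.98% passed this test, 0.936% with a larger and 1.05% with a smaller response in EVI1 cells. The call was lost when vec EtOH replicate 2 (-1.31, adjusted p = 0.0573), vec EtOH replicate 3 (-1.31, 0.0639) or EVI1 EtOH replicate 3 (-1.22, 0.0558) was left out. Over its 19 alternatives the adjusted p ran from 0.0108 to 0.0639, with no change of sign. In TPA itself PTGS2 was 2.70-fold lower in EVI1 cells (-1.43 ± 0.19, adjusted p = 2.88e-04), and this call held with any of the 12 arrays left out. In EtOH the populations differed by -0.04 (95% interval -0.46 to 0.38), with both groups under the median line. From high to low the groups stood vec TPA, EVI1 TPA and then the 2 EtOH groups, which did not differ beyond their spread.

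A second PTGS2 probe set, which read lower, gave the same order. It read 2.48, 2.60 and 2.48 in vec EtOH, 4.10, 3.87 and 4.57 in vec TPA, 2.61, 2.38 and 2.69 in EVI1 EtOH and 3.01, 3.21 and 2.94 in EVI1 TPA. Every one of these 12 values lay under 5.07. Its rise was 1.66 ± 0.15 in vec cells and 0.49 ± 0.15 in EVI1 cells (adjusted p = 0.0181 over all probe sets), and the difference in response was -1.17 ± 0.21 (adjusted p = 0.0153).

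PTGS1, known as the constitutive cyclooxygenase of many tissues, rose in both populations. The gene lies at chr9:122370533-122395703 on GRCh38.p14. It read 9.24, 8.99 and 8.91 in vec EtOH and 11.38, 11.34 and 11.41 in vec TPA. In EVI1 cells the values were 8.92, 8.55 and 9.01 in EtOH and 11.02, 11.17 and 11.31 in TPA. Every TPA array lay well above every EtOH array. The rise was 2.33 ± 0.12 (5.03-fold, adjusted p = 1.93e-09) in vec cells and 2.34 ± 0.12 (5.06-fold, adjusted p = 2.46e-09) in EVI1 cells. The difference between these responses was 0.01 with a 95% interval of -0.37 to 0.39. In TPA the 3 EVI1 arrays lay just below the 3 vec arrays (-0.21, adjusted p = 0.37), and in EtOH the populations overlapped. The probe set used carries the x suffix, which marks probes that can also match other transcripts, but the other 3 probe sets rose as well, by 2.37, 2.69 and 1.27 in vec cells and 2.47, 2.86 and 1.31 in EVI1 cells.

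**Figure D2:**
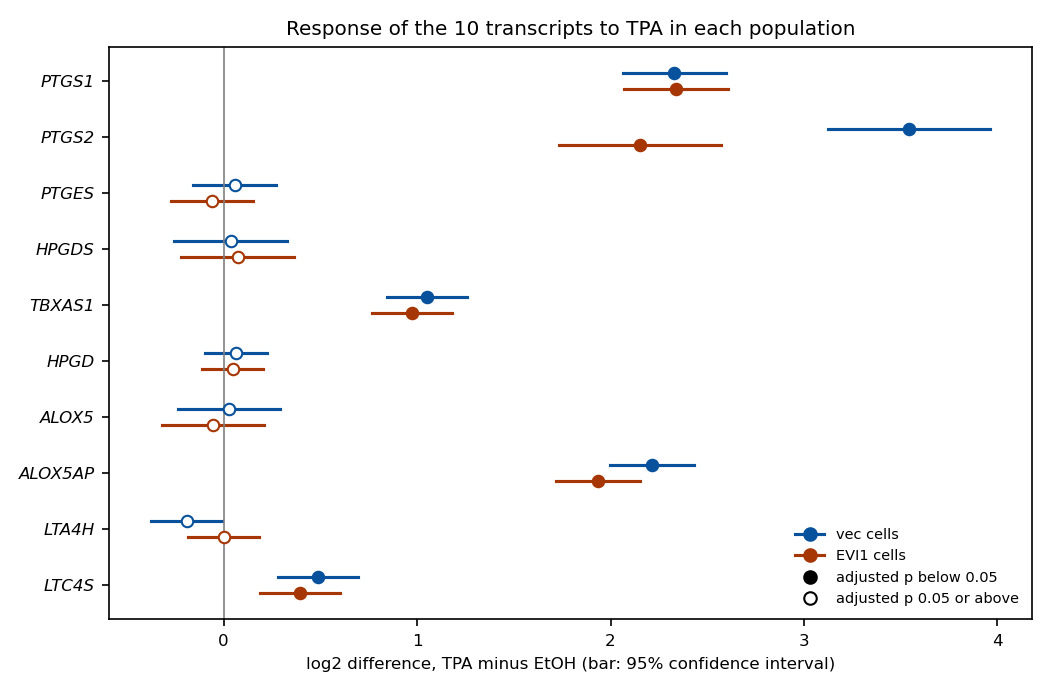
Log2 difference between TPA and EtOH (horizontal axis) for the 10 transcripts in vec cells (blue) and EVI1 cells (red); points are fitted differences, bars 95% confidence intervals, and filled points have an adjusted p below 0.05. The intervals of the populations are apart for PTGS2, at 3.54 and 2.15, and overlap for the other 9.

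Of the enzymes that act on prostaglandin H2, TBXAS1 rose and neither PTGES nor HPGDS passed the test. TBXAS1 (chr7:139778242-140020293), the thromboxane A2 synthase, read 6.78, 7.01 and 6.90 in vec EtOH, 8.05, 8.04 and 7.75 in vec TPA, 6.85, 6.84 and 6.80 in EVI1 EtOH and 7.82, 7.72 and 7.87 in EVI1 TPA. The TPA and EtOH arrays did not overlap in either population, and the populations overlapped in both treatments. The rise was 1.05 ± 0.10 (2.07-fold, adjusted p = 4.29e-07) in vec cells and 0.97 ± 0.10 (1.96-fold, adjusted p = 1.10e-06) in EVI1 cells, a difference of -0.08 (95% interval -0.37 to 0.21). The second TBXAS1 probe set rose by 1.35 and 1.26.

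PTGES (chr9:129738349-129753042), the inducible microsomal prostaglandin E synthase, ran from 6.15 to 6.52 over all 12 arrays, and its 4 group means lay between 6.26 and 6.40. TPA minus EtOH was 0.06 (95% interval -0.16 to 0.27) in vec cells and -0.06 (-0.27 to 0.15) in EVI1 cells. Its second probe set read 0.28 higher in TPA in EVI1 cells, which did not pass (adjusted p = 0.0606 over all probe sets).

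HPGDS (chr4:94298535-94342836), the haematopoietic prostaglandin D synthase known from mast cells, ran from 4.32 to 4.88, and HPGD (chr4:174490175-174522893), which inactivates prostaglandins by oxidation, from 3.71 to 4.0. Both stayed under 5.07 on every array, as did all 4 HPGD probe sets, which spanned 2.20 to 4.0. TPA minus EtOH was 0.04 and 0.07 for HPGDS and 0.06 and 0.05 for HPGD in vec and EVI1 cells, none of which passed. The HPGD arrays did not overlap between TPA and EtOH in vec cells although those 6 arrays spanned only 3.89 to 4.0. At this signal, whether either transcript is present was not detectable.

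In the leukotriene branch, TPA raised ALOX5AP and LTC4S, left LTA4H without a call and gave no call for ALOX5 by its main probe set. ALOX5AP (chr13:30713485-30764426), which presents arachidonic acid to the lipoxygenase, read 11.46, 11.14 and 11.14 in vec EtOH and 13.41, 13.40 and 13.58 in vec TPA. In EVI1 cells it read 11.61, 11.48 and 11.70 in EtOH and 13.49, 13.58 and 13.52 in TPA. Every EVI1 EtOH array was above every vec EtOH array, while the TPA arrays of the populations overlapped. The rise was 2.22 ± 0.10 (4.65-fold, adjusted p = 3.98e-10) in vec cells and 1.93 ± 0.10 (3.82-fold, adjusted p = 2.03e-09) in EVI1 cells. The difference between the responses, -0.28 (95% interval -0.59 to 0.02), did not pass (adjusted p = 0.444). Saturation of this bright probe set was not assessed.

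ALOX5 (chr10:45374216-45446117), which encodes 5-lipoxygenase, read 3.41 to 3.81 on all 12 arrays by its main probe set, always under 5.07. TPA minus EtOH was 0.03 (95% interval -0.23 to 0.29) in vec cells and -0.06 (-0.32 to 0.21) in EVI1 cells. The third of its 4 probe sets differed from the others. It read 3.40, 3.18 and 3.21 in vec EtOH and 4.03, 4.5 and 3.84 in vec TPA, against 3.32, 3.01 and 3.29 in EVI1 EtOH and 3.72, 3.47 and 3.49 in EVI1 TPA. All vec TPA arrays were above all others, yet still under the median line. The rise there was 0.86 ± 0.15 in vec cells (adjusted p = 2.78e-04 over all probe sets) and 0.35 ± 0.15 in EVI1 cells (adjusted p = 0.0883), and the difference between them, -0.51, did not pass (adjusted p = 0.378). In TPA this probe set was lower in EVI1 than in vec cells, by -0.56 ± 0.15 (adjusted p = 0.0316 over all probe sets). With the mean of all 4 probe sets, ALOX5 was called in vec cells (0.22, adjusted p = 0.0251). The ALOX5 result therefore depends on the probe set, and no probe set was above 5.07 on any array.

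LTA4H (chr12:96000753-96043520), the enzyme of leukotriene B4 synthesis, was lower in TPA in vec cells only by a margin that did not pass. It read 11.35, 11.37 and 11.37 in vec EtOH, 11.17, 11.30 and 11.05 in vec TPA, 11.51, 11.57 and 11.61 in EVI1 EtOH and 11.48, 11.69 and 11.52 in EVI1 TPA. The vec arrays did not overlap between treatments, with -0.19 ± 0.09 (adjusted p = 0.0934), and the EVI1 difference was 0.00 (95% interval -0.18 to 0.18). Without vec TPA replicate 2 the vec difference was -0.25 and passed (adjusted p = 0.0373). The difference between the responses did not pass (0.19, adjusted p = 0.592).

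LTC4S (chr5:179793986-179796647), the leukotriene C4 synthase, read 6.51, 6.50 and 6.35 in vec EtOH, 6.95, 7.09 and 6.78 in vec TPA, 6.11, 5.99 and 6.16 in EVI1 EtOH and 6.55, 6.37 and 6.53 in EVI1 TPA. The TPA arrays lay above the EtOH arrays in each population, and the EVI1 arrays below the vec arrays in each treatment. Its rise was small, 0.49 ± 0.10 (1.40-fold, adjusted p = 7.04e-04) in vec cells and 0.40 ± 0.10 (1.32-fold, adjusted p = 0.00368) in EVI1 cells. By mean, from high to low, the groups stood vec TPA, EVI1 TPA, vec EtOH and EVI1 EtOH. The arrays of EVI1 TPA and vec EtOH overlapped, and these groups were not tested against each other.

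**Figure D3:**
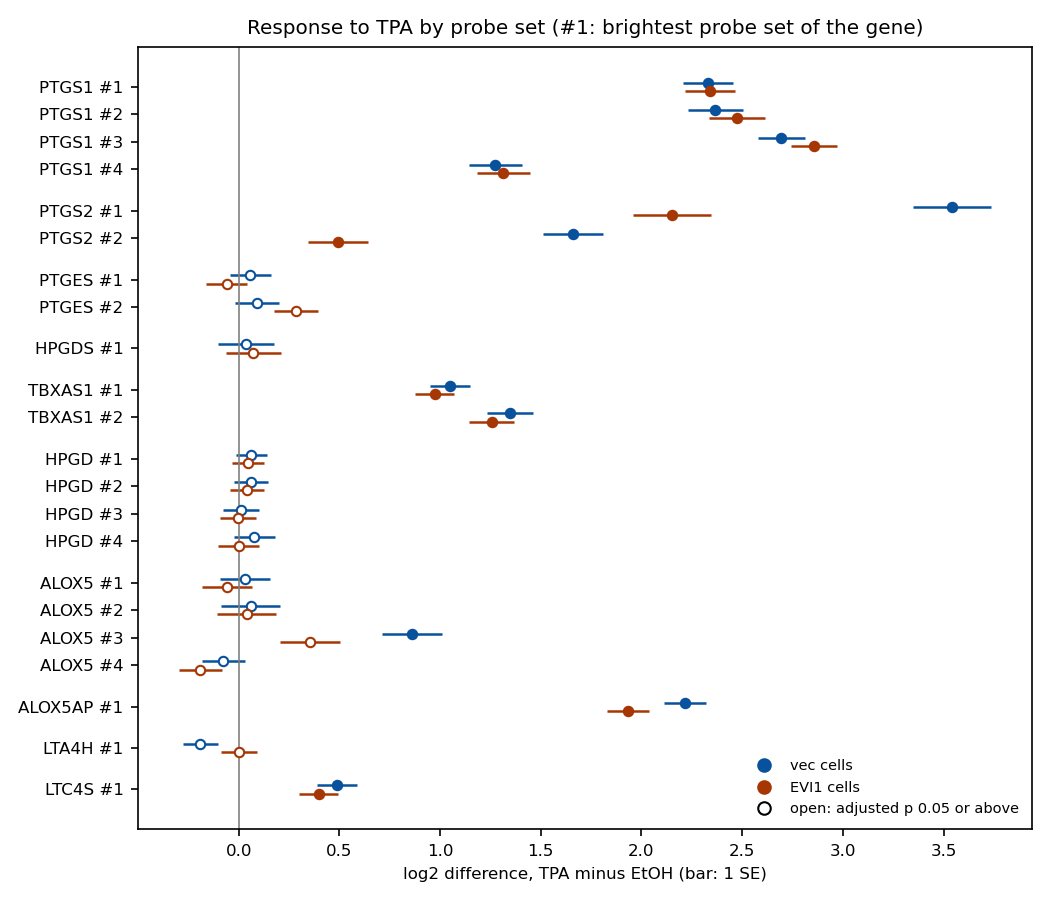
Log2 difference between TPA and EtOH (horizontal axis) for each of the 22 probe sets of the 10 genes, numbered from the brightest, in vec cells (blue) and EVI1 cells (red); bars are 1 SE, and open points have an adjusted p of 0.05 or above over all probe sets. The PTGS1, PTGS2 and TBXAS1 probe sets all moved up, and the third ALOX5 probe set, at 0.86 in vec cells, stands apart from the other 3.

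Between the populations, 3 members differed in TPA and 0 passed in EtOH. In TPA, PTGS2 and LTC4S were lower and LTA4H was higher in EVI1 cells, against 11.2% of all genes called, 5.9% higher and 5.3% lower. LTC4S differed by -0.46 ± 0.10 (1.37-fold, adjusted p = 0.00671) and LTA4H by 0.39 ± 0.09 (1.31-fold, adjusted p = 0.00864). Replicate numbers were taken to pair the arrays in this comparison from correlations in the data, since no label states it. With the replicate as a block in a fit of the 6 TPA arrays, LTC4S no longer passed (adjusted p = 0.0623). LTA4H did not pass when only the 2 TPA groups entered the fit without the block (adjusted p = 0.0692). The arrays of the populations did not overlap for 5 members in TPA, against 22.4% of all genes, and the median difference of the 10 was -0.13 against 0.01.

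In EtOH, limma called 0 of 10 members, with 3 at an unadjusted p below 0.05, and 3.27% of all genes were called. The 3 were ALOX5AP, higher by 0.35 ± 0.10 in EVI1 cells (adjusted p = 0.091), LTA4H, higher by 0.20 ± 0.09 (0.329), and LTC4S, lower by 0.37 ± 0.10 (0.0581). For these 3 and HPGD the arrays of the populations did not overlap, 4 members against 22% of all genes. LTC4S passed under 7 of its 20 alternatives, among them without vec TPA replicate 2 (adjusted p = 0.0445) or vec TPA replicate 3 (0.0408). It also passed with only the 2 EtOH groups in the fit (0.035). Over these alternatives its adjusted p ran from 0.0288 to 0.242. ALOX5AP passed under 3 of its 20, among them without vec EtOH replicate 1 (0.46, adjusted p = 0.0309). By their main probe sets, the 7 members other than LTA4H, LTC4S and PTGS2 differed between the populations in TPA by no more than 0.21, and none of these differences passed.

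**Figure D4:**
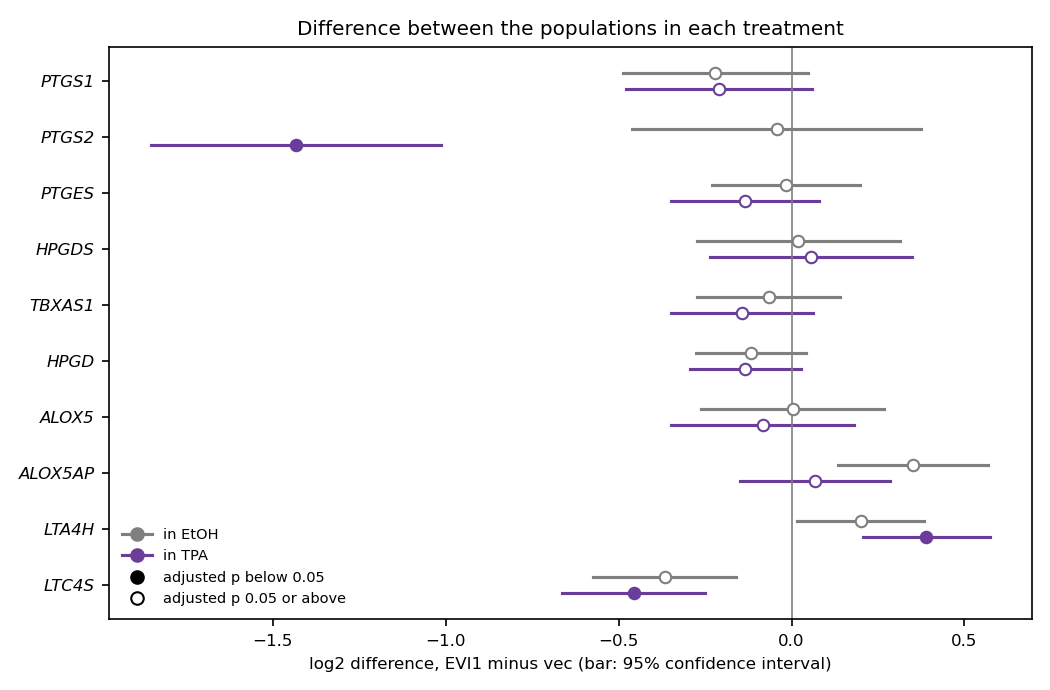
Log2 difference between EVI1 and vec cells (horizontal axis) for the 10 transcripts in EtOH (grey) and TPA (purple); bars are 95% confidence intervals and filled points have an adjusted p below 0.05. PTGS2 in TPA stands at -1.43, LTC4S lies below 0 and LTA4H above 0 in both treatments, and only their TPA points are filled.

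The genes around the enzymes were counted from lists by role. Of 20 measured genes that release or handle arachidonic acid, TPA raised 8 and lowered 4 in vec cells (60%) and raised 9 and lowered 2 in EVI1 cells (55%), against 43.2% and 40% of all genes. Their median difference was 0.18 and 0.25, against 0.02 and 0.00 over all genes. Of these, PLA2G15, a lysosomal phospholipase A2, rose by 3.04 ± 0.16 and 2.77 ± 0.16, and ANXA1, a protein first known for inhibiting phospholipase A2, by 2.79 ± 0.24 and 1.95 ± 0.24. The second, dim ANXA1 probe set rose by 1.18 in vec cells and gave 0.33 in EVI1 cells, which did not pass (adjusted p = 0.164 over all probe sets). DAGLB, a diacylglycerol lipase, fell by 0.63 and 0.67 with TPA, and FAAH, which hydrolyses anandamide, by 0.46 and 0.42. DAGLB was also lower in EVI1 than in vec cells, by 0.57 ± 0.10 in EtOH and 0.61 ± 0.10 in TPA (adjusted p = 0.00594 and 0.00138). LPCAT3, which returns arachidonic acid to phospholipids, was 0.34 higher in EVI1 cells in TPA, but its second probe set gave -0.16. LPCAT3 lost that call without vec TPA replicate 3 (adjusted p = 0.0728), without EVI1 TPA replicate 2 (0.068) and with the block in the 6 TPA arrays (0.0984).

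Of 11 other prostaglandin enzymes, 1 rose and 5 fell in vec cells (54.5%, against 43.2% of all genes). In EVI1 cells 1 rose and 3 fell (36.4%, against 40%). Their median difference was -0.18 and -0.11. The riser was AKR1C3, which reduces prostaglandin D2 and steroids. It read 3.20, 3.21 and 3.51 in vec EtOH, 3.52, 3.72 and 4.36 in vec TPA, 3.68, 3.65 and 3.77 in EVI1 EtOH and 7.32, 7.80 and 7.23 in EVI1 TPA. The EVI1 TPA arrays stood alone above 5.07, and the other 3 groups were not shown to be above background, so the differences below may understate the change. The rise in EVI1 cells was 3.75 ± 0.19 and the difference in response 3.19 ± 0.27 (adjusted p = 9.24e-05). The vec change, 0.56 ± 0.19 (adjusted p = 0.0287), was lost without vec EtOH replicate 1 (0.0918), vec EtOH replicate 2 (0.0882) or vec TPA replicate 3 (0.143). PRXL2B, the prostamide and prostaglandin F synthase, fell by 1.73 ± 0.21 and 1.32 ± 0.21. Among the prostaglandin E synthases beside PTGES, PTGES2 fell by 0.61 ± 0.07 in vec and 0.28 ± 0.07 in EVI1 cells (adjusted p = 0.00612), and PTGES3 fell by 0.55 ± 0.07 and 0.57 ± 0.07. PTGES2 was 0.26 higher in EVI1 cells in TPA (adjusted p = 0.0363), a call lost with the block in the 6 TPA arrays (0.166) and without any 1 array other than vec EtOH replicates 2 and 3 and vec TPA replicate 2 (0.0512 to 0.119).

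Of 16 other lipoxygenase and leukotriene genes, 6 rose and 1 fell in vec cells (43.8%, against 43.2% of all genes). In EVI1 cells 4 rose and 1 fell (31.2%, against 40%). Their median difference was 0.18 and 0.13. MGST3, a microsomal glutathione transferase able to make leukotriene C4, rose by 1.25 ± 0.10 and 0.92 ± 0.10, though its second probe set gave 0.20 and 0.14, neither of which passed. MGST3 was also 0.53 higher in EVI1 cells in EtOH, a call lost without vec EtOH replicate 2 (adjusted p = 0.0582) or EVI1 EtOH replicate 3 (0.0519). COTL1, an actin-binding protein that also binds 5-lipoxygenase, rose by 0.54 ± 0.09 in vec and 0.38 ± 0.09 in EVI1 cells. DPEP2, a dipeptidase of leukotriene D4, rose by 0.53 ± 0.13 and 0.65 ± 0.13, from EtOH means under 5.07. MGST1, a related transferase, fell by 0.59 ± 0.17 and 0.89 ± 0.17.

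Of 18 receptors and transporters, 3 rose and 2 fell in each population (27.8%, against 43.2% and 40% of all genes). Their median difference was -0.065 and 0.06. PPARG, a nuclear receptor for which some prostaglandin D2 products are ligands, rose by 2.46 ± 0.11 and 2.28 ± 0.11. PTGER4, a prostaglandin E2 receptor, read 10.60, 10.54 and 10.49 in vec EtOH, 11.26, 11.41 and 11.52 in vec TPA, 10.03, 9.99 and 9.97 in EVI1 EtOH and 11.40, 11.53 and 11.48 in EVI1 TPA. The EtOH arrays of the populations were apart, with EVI1 minus vec at -0.55 ± 0.08 (adjusted p = 0.00174), and the TPA arrays overlapped. It rose by 0.85 ± 0.08 in vec and 1.47 ± 0.08 in EVI1 cells, and the difference in response was 0.62 ± 0.12 (adjusted p = 0.0158). That call was lost without vec EtOH replicate 1 (0.0533), and a second PTGER4 probe set, under 5.07 in all groups, gave 0.00 in both populations. ABCC4, a transporter that exports prostaglandins, fell by 0.91 ± 0.10 and 0.89 ± 0.10. LTB4R, a leukotriene B4 receptor, fell by 0.77 ± 0.18 in EVI1 cells, and its vec difference of -0.41 did not pass (adjusted p = 0.0973). PTGDR, a prostaglandin D2 receptor, fell by 0.30 ± 0.11 in vec cells with all group means under 5.07, and lost that call without vec EtOH replicate 2 (adjusted p = 0.0934) or 3 (0.148), vec TPA replicate 1 (0.104) or 3 (0.0948), or EVI1 EtOH replicate 2 (0.0505).

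Of 14 known inducers and negative regulators of PTGS2, 11 rose and 1 fell in each population (85.7%, against 43.2% and 40% of all genes). Their median difference was 2.18 and 1.94. EGR1, an immediate early factor, rose by 5.41 ± 0.17 and 5.19 ± 0.17. The faller was ELAVL1, an RNA-binding protein that stabilises PTGS2 mRNA, by 1.26 ± 0.07 and 1.02 ± 0.07. IL1B, a cytokine that induces PTGS2, read 5.54, 5.87 and 5.47 in vec EtOH, 13.77, 13.70 and 13.67 in vec TPA, 6.10, 6.07 and 5.96 in EVI1 EtOH and 11.51, 10.05 and 11.48 in EVI1 TPA. Its vec TPA arrays lay above its EVI1 TPA arrays, as those of PTGS2 did. The IL1B rise was 8.09 ± 0.28 in vec and 4.97 ± 0.28 in EVI1 cells, a difference of -3.12 ± 0.40 (adjusted p = 0.00134). TNF, another inducer, was lower in EVI1 cells in TPA by 1.2 ± 0.14, with a difference in response of -1.52 ± 0.20 (adjusted p = 0.00179). ZFP36, which speeds the decay of such mRNAs, was 0.34 higher in EVI1 cells in TPA (adjusted p = 0.0329), a call lost with the block in the 6 TPA arrays (0.0775) and without vec TPA replicate 1 (0.118), vec TPA replicate 3 (0.107), EVI1 TPA replicate 2 (0.106) or EVI1 TPA replicate 3 (0.0698). JUN was 0.56 lower in EVI1 cells in EtOH (adjusted p = 0.0238), a call lost without vec EtOH replicate 1 (0.107), vec EtOH replicate 2 (0.103), EVI1 EtOH replicate 1 (0.0808) or EVI1 EtOH replicate 2 (0.121). Of this list, 1 gene was called higher and 3 lower in EVI1 cells in TPA (28.6%, against 11.2% of all genes), and not all are named. DUSP1, also in the list, had a mean of 11.33 in vec TPA and 10.62 in EVI1 TPA. The list mixes inducers and negative regulators, so its counts give no direction for PTGS2. The comparisons of the populations and of the treatments share arrays, so these values are given side by side only.

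Fewer genes were called between the populations than between the treatments, in the role lists and over all genes (3.27% in EtOH and 11.2% in TPA). In EtOH limma called 1 of the arachidonic acid genes (5%) and 1 of the leukotriene genes (6.25%). It also called 1 of the receptors and transporters (5.56%) and 1 of the PTGS2 regulators (7.14%). It called 0 of the 11 other prostaglandin enzymes there, with 1 at an unadjusted p below 0.05. In TPA it called 2 arachidonic acid genes (10%), 2 prostaglandin enzymes (18.2%) and 4 PTGS2 regulators (28.6%), against 11.2% of all genes. It called 0 of the 16 leukotriene genes and 0 of the 18 receptors and transporters in TPA, with 1 and 2 at an unadjusted p below 0.05. With 1 array left out at a time, the calls in TPA ranged from 1 to 6 for arachidonic acid genes, 1 to 2 for prostaglandin enzymes and 2 to 4 for PTGS2 regulators, and from 0 to 1 for each of the other 2 lists. In EtOH they ranged from 0 to 1 for prostaglandin enzymes and for leukotriene genes, 1 to 2 for receptors and transporters and 0 to 2 for PTGS2 regulators, with 1 arachidonic acid gene each time.

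**Figure D5:**
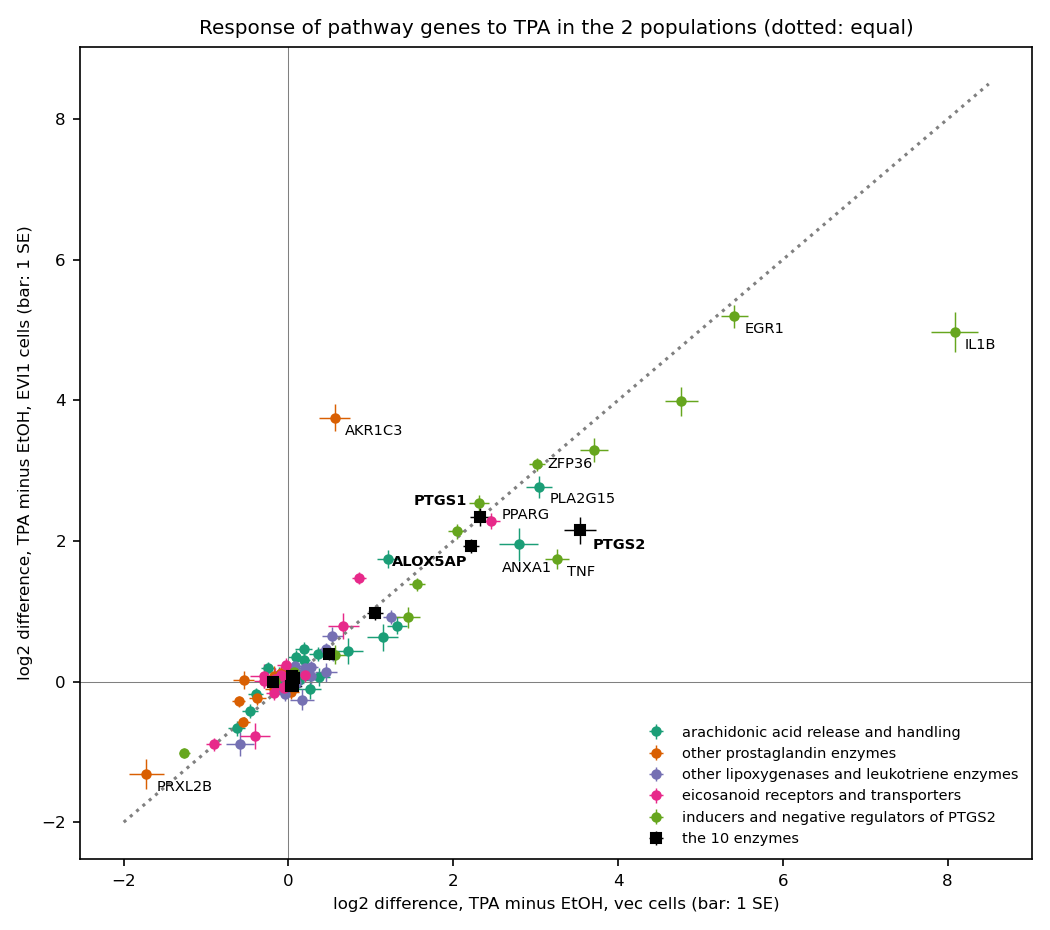
Log2 difference between TPA and EtOH in vec cells (horizontal axis) and in EVI1 cells (vertical axis) for the genes of the 5 role lists (coloured points) and the 10 enzymes (black squares); bars are 1 SE and the dotted line marks equal responses. PTGS2, IL1B and TNF lie below the line and AKR1C3 above it at 0.56 and 3.75, while PTGS1 and EGR1 lie on or near it.

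Markers of other cells that make these mediators were read because HPGDS and LTC4S are known from mast cells and eosinophils and PTGS1 and TBXAS1 from platelets. The mean of 8 mast cell and basophil markers lay at 5.02 to 5.08 on the vec EtOH arrays, 5.38 to 5.63 in vec TPA, 5.08 to 5.18 in EVI1 EtOH and 5.33 to 5.70 in EVI1 TPA. Within that list the tryptases TPSAB1 (2.79 and 2.64) and TPSB2 (2.60 and 2.32) rose with TPA. KIT fell by 1.14 and 2.04, with a mean above 5.07 in EVI1 EtOH alone, while FCER1A, CPA3 and CMA1 were under 5.07 on every array. HDC means were 5.01 in vec EtOH, 5.25 in vec TPA, 5.03 in EVI1 EtOH and 5.32 in EVI1 TPA. GATA2 means lay at 6.13 to 6.24. The mean of 6 eosinophil markers lay at 4.57 to 4.6, 4.73 to 4.82, 4.45 to 4.59 and 4.55 to 4.66 in the same order, with the group means of CLC, PRG3, EPX and SIGLEC8 under 5.07. IL5RA means lay at 5.42 to 5.59 with no call. PRG2, eosinophil major basic protein, rose by 1.27 ± 0.20 in vec cells (adjusted p = 8.84e-05), and its EVI1 difference of 0.20 did not pass (adjusted p = 0.509). In TPA PRG2 was lower in EVI1 than in vec cells, by -1.47 ± 0.20 (adjusted p = 2.76e-04). The mean of 8 megakaryocyte and platelet markers lay at 4.67 to 4.80, 5.41 to 5.61, 4.73 to 4.79 and 4.86 to 5.11. PPBP in that list rose by 5.11 in vec cells. Its EVI1 means, 3.10 and 3.80, were both under 5.07, and the call for their difference of 0.70 was lost without EVI1 EtOH replicate 1 (adjusted p = 0.0651) or 2 (0.0713) or EVI1 TPA replicate 3 (0.0979). SELP rose by 0.49 ± 0.12 in vec cells (adjusted p = 0.00395), and its EVI1 difference of 0.04 did not pass. The group means of GP6, PF4 and TUBB1 were under 5.07, and those of ITGA2B, GP9 and GP1BA were above it with no call. The part of any of these in the levels of LTC4S, PTGS1 and TBXAS1 was not tested.

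The 4 members whose group means spanned at least 1 unit were set against 10453 other genes by Pearson correlation over the 12 arrays, which mostly reflects the shared contrast of TPA and EtOH. PTGS1 was most alike to CD81 (0.999) and SLC31A2 (0.997), and PTGS2 to ATPAF2 (0.988) and DHRS7 (0.987). TBXAS1 was most alike to LINC00702 (0.993) and CHD2 (0.990), and ALOX5AP to CARD19 and YPEL5 (both 0.997). These values describe 12 arrays in 4 groups and carry no test.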

How the data were processed

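The deposited values are log2 expression values from 12 Affymetrix arrays. Per the submitters' processing notes, the authors made them with RMA (Affymetrix Expression Console 1.3), and 250 ng of total RNA was labelled per the labels' protocols. RMA forces arrays to a common distribution, so a shift shared by most genes is removed. The platform annotation named 1 gene for 41091 of 54675 probe sets, several for 1801 and none for 11783 (62 control probe sets counted among these). Each of 19775 genes was given its brightest single-gene probe set over all arrays, and other probe sets served as a check. Group means of all 12 arrays were fitted with limma 3.58.1 in R 4.3.3 (empirical Bayes, 8 residual degrees of freedom, two-sided, Benjamini-Hochberg over all genes at 0.05). The script was tested on simulated data. Permutation tests used scipy 1.17.1. The number of arrays limits the precision.

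All 10 members are described. From each role list, up to 2 genes that rose and 2 that fell most among called genes are named in each comparison, and from members spanning at least 1 unit the 2 most alike genes. The members and lists were chosen with earlier results of these data known. PLA2G4B, PLA2G10, ACSL3, AKR1B1, DPEP1 and LTB4R2 were not analysed here. Marker genes named beside the results were chosen after their values were seen. Same-numbered arrays correlated in their deviations from group means at 0.415, 0.13 and 0.151 between vec TPA and EVI1 TPA, each over 0.1. Other pairs of groups did not pass for all 3 numbers, so the numbers were taken to pair samples in that comparison only. Some missed narrowly: vec EtOH and vec TPA gave 0.157, 0.105 and 0.079, and EVI1 EtOH and EVI1 TPA gave 0.145, 0.091 and 0.208. The pairing rests on the data, since no shared day or batch is stated. No batch label was used.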

Additional observations from a re-analysis of the deposited data

Results flagged for a closer look

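The response to TPA differed between the EVI1 and vec populations, by the limma test of that difference, for 7 genes named in the report. PTGS2 rose less in EVI1 cells, by a difference of -1.39 ± 0.27 on the log2 scale (SE, adjusted p = 0.0213), a call that 3 of the 12 single-array omissions ended. IL1B also rose less in EVI1 cells (-3.12 ± 0.40, adjusted p = 0.00134), as did TNF (-1.52 ± 0.20, adjusted p = 0.00179). AKR1C3 rose more in EVI1 cells (3.19 ± 0.27, adjusted p = 9.24e-05), from levels under 5.07 that were not shown to be above background, so that this difference may understate the change. PTGER4 also rose more in EVI1 cells (0.62 ± 0.12, adjusted p = 0.0158), although the second PTGER4 probe set showed no rise. Its EtOH means were 10.54 in vec and 10.00 in EVI1 cells, and its TPA means 11.40 and 11.47. The PTGER4 call was lost without vec EtOH replicate 1 (adjusted p = 0.0533). Among the marker genes, PPBP had a difference in response of -4.41 ± 0.31 (adjusted p = 1.47e-05), with vec TPA the one group whose mean was above 5.07. KIT fell more in EVI1 cells (-0.90 ± 0.20, adjusted p = 0.0342), a call that 8 of the 12 single-array omissions ended. Its mean was above 5.07 in EVI1 EtOH alone, at 6.16 against 5.06 in vec EtOH, and both falls ended at levels not shown to be above background.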

How the results depend on the processing

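For the 10 enzymes, 991 values under alternatives kept their side of the threshold, 14 passed where the reported value did not and 5 no longer passed. No value that passed changed sign. Of the 991, 61 changed sign or went to or from 0, none of which passed or was larger than 0.28 under either setting. For the other named genes, marker genes included, 3034 kept their side, 27 newly passed, 70 no longer passed and 4 reversed, and 49 of the 3034 changed sign or went to 0 without passing. The 4 reversals were LPCAT3 in the response to TPA in EVI1 cells (-0.28 with the mean of all probe sets, -0.76 with the second probe set), LPCAT3 between populations in TPA (-0.16 with the second) and the PTGER4 difference in response (0 with the second). Members called between populations in EtOH were 1 in place of 0 with only the 2 groups in the fit, with trend and robust moderation, with centred arrays, with quantile normalization and with the mean of probe sets, and 2 with dim genes left out. The last setting left 0 members called for the difference in response, because PTGS2 was among the genes left out. Genes called between populations in TPA were 2214, and 1241 with only those groups in the fit. The second probe set exists for only 10523 genes and 6 members, and gave 4102, 3775, 177, 807 and 134 genes called for TPA in vec, TPA in EVI1, populations in EtOH, populations in TPA and the difference in response, and 3, 3 and 1 members for the first, the second and the fourth of these. With 1 array left out at a time, genes called ranged over 7860 to 8869, 7213 to 7928, 369 to 787, 1532 to 2616 and 188 to 681, and members called over 5 to 6, 5 to 5, 0 to 1, 3 to 3 and 0 to 1. The replicate block in all 12 arrays gave 8779, 8123, 729, 2498 and 516 genes and changed no member's call, and the block in the 6 TPA arrays, chosen after seeing the data, gave 1528 genes and 2 members. Limits are the 3 arrays per group, the lack of detection calls for dim transcripts, and scaling that moved the median of all genes by less than 0.1.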
